A study of Mus musculus with 34 samples.

Results

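The genes described here are Cd68 and 7 genes of the lysosome, Lamp1, Lamp2, Ctsb, Ctsd, Ctsl, Hexa and Tfeb, in RNA-seq of mouse hematopoietic stem cells (HSCs) with and without Ythdf2. They were taken by gene name and make up 8 of the 13108 rows of the count table. Cd68 was picked because its CPM (counts scaled to a common library size) were higher in the knockout HSCs at both ages, so its values are given as a description, with no test. The other 7 genes were picked by name as genes of the lysosome, and their genotype and age contrasts are tested.

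Lysosomes are acidic organelles that digest material delivered by endocytosis, phagocytosis and autophagy. Their limiting membrane is lined with heavily glycosylated proteins of the LAMP family, to which CD68 (macrosialin) belongs, and their lumen holds proteases such as the cathepsins together with glycosidases, sulfatases and lipid hydrolases. TFEB is a transcription factor that, when mTORC1 activity is low, enters the nucleus and switches on many lysosomal genes, and in HSCs lysosomal activity has been tied to quiescence. CD68 is widely used as a marker of monocytes and macrophages, although many other cells carry it at low level.

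RNA was taken from 100 HSCs per library, sorted from bone marrow as LSK CD48-CD150+ cells (Lin- Sca-1+ c-Kit+ cells further gated on 2 SLAM markers), and sequenced after SMART-Seq2 amplification, with libraries A and B from each mouse. All mice were on a C57BL/6 background and, by the study's methods, carried the floxed Ythdf2 allele, in which exon 2 is flanked by loxP sites and GFP follows the start codon, so both genotypes had the GFP-tagged allele. Ythdf2 CKO mice (YTHDF2 KO in the labels) were Ythdf2 fl/fl with Vav-iCre, which acts throughout the blood system and from before birth, and Ythdf2 CTL mice (WT in the labels) were Ythdf2 fl/fl without Cre. There were 4 young CTL, 4 young CKO, 4 aged CTL and 5 aged CKO mice, the aged mice being 1 yr old by the labels and the young ones 8 to 12 wk by the methods. The library descriptions carry one code for all young libraries and another for all aged libraries, so age and library set cannot be told apart in any comparison between ages.

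The 33 libraries used held between 1859784 and 7784627 counts, and the summed counts per mouse were between 2218618 and 10125624, so that 3 counts, taken as the floor, corresponded to 0.292 to 1.24 CPM in a mouse. The library aged CTL 99 B, with 187034 counts, was left out, and mouse 99 entered with 1 library. The HSC markers Kit (309 to 597 CPM), Procr (34.4 to 110.3 CPM) and Hlf (141 to 365 CPM) were present in all 17 mice. Ythdf2, counted over the whole gene and not over the deleted exon alone, was at 93.4 to 123 CPM in young CTL and 50.3 to 60.3 CPM in young CKO mice. Among the aged mice 2 went against their labels: the mouse labelled aged CKO 121 had 188 CPM of Ythdf2, above all mice labelled aged CTL (70.5 to 179 CPM), and the mouse labelled aged CTL 124 had 70.5 CPM, below the 72.4 to 87.8 CPM of the other 4 mice labelled aged CKO. The aged genotype contrasts and the age contrasts of the members, and the counts over all listed genes together, are therefore given with both mice as labelled and without them, and other aged values are given as labelled.

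The 8 genes differed widely in level. Per kb of merged exons, the mean over 17 mice was 148 CPM per kb for Ctsd, 103 for Lamp1, 85.4 for Hexa, 70.8 for Ctsb, 31.7 for Lamp2, 24.1 for Cd68, 14.4 for Ctsl and 0.831 for Tfeb. Cd68 ranged from 5.25 to 48.0 CPM per kb in single mice, and its place in this order differed between groups: in young CKO mice its mean (39.0 CPM per kb) was above that of Lamp2 (35.3), and in aged CTL mice (9.49) it was below that of Ctsl (14.6). Tfeb was the least expressed member in every group, at 0.661 to 0.934 CPM per kb in the group means.

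The promoters of 7 of the 8 members were matched by symbol in the RefSeq annotation of GRCm38.p6, and Ctsb was the member with no entry. The 250 bases before the transcription start that RefSeq gives are shown 5′ to 3′ for Cd68, the member with the widest gap between genotypes, and for Lamp1 and Ctsd, the members with the most copies of the E-box CACGTG, the core of the element that TFEB and its relatives bind. Capitals mark CACGTG together with a T before it or an A after it, which completes TCACGTG on one strand or the other. The windows are chr11:69666171-69666420 on the minus strand for Cd68, chr8:13158911-13159160 on the plus strand for Lamp1 and chr7:142387828-142388077 on the minus strand for Ctsd. The starts in RefSeq and GENCODE differ for some genes, and 211 bases of the Ctsd window lie within the span of Ctsd in GENCODE.
Cd68: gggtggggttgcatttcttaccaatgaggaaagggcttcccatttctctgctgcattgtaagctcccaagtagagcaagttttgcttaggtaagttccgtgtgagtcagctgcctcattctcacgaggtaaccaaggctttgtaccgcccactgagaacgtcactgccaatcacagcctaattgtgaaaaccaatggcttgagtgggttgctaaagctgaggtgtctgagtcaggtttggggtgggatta
Lamp1: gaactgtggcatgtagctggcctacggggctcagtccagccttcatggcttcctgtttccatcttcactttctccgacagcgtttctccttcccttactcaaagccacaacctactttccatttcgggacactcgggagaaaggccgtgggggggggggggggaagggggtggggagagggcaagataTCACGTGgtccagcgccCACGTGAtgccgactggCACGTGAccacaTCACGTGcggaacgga
Ctsd: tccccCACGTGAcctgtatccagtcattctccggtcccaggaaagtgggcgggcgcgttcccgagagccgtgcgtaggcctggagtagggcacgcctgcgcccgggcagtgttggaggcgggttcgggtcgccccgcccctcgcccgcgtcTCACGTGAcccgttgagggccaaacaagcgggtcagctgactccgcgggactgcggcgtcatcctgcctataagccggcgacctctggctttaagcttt

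The letters CACGTG occurred 4 times in the Lamp1 window, between 61 and 15 bases before the start, 2 times in the Ctsd window, at 245 and 98 bases, and 1 time in the Ctsl window, at 236 bases, all counted from the RefSeq start. The Ctsl window and 2 of the 3 Tfeb windows lie wholly within the GENCODE span of their gene. They did not occur in the windows of Cd68, Lamp2, Hexa or in any of the 3 windows of Tfeb. Of 32851 mouse promoters of the same length, 6.02% held CACGTG, and 3.13% held TCACGTG on either strand, a longer match that contains the first. The Cd68 window had a GC content of 49.2%, against 59.6% for Lamp1, 67.2% for Ctsd and a median of 52.4% over the promoters.

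Cd68 lies on chr11:69664213-69666153, minus strand (GRCm38), with 6 merged exons of 1257 bases in all. In young CTL mice 1 to 4 Cd68 was at 25.5, 18.4, 21.6 and 24.4 CPM (22.5 ± 3.17, SD, n = 4). In young CKO mice 1 to 4 it was at 60.3, 32.9, 48.0 and 54.8 CPM (49.0 ± 11.9, SD, n = 4). The lowest young CKO mouse, number 2, lay above the highest young CTL mouse, number 1, so the genotypes did not overlap. The ratio of means was 2.18, and the log2 fold change fitted by edgeR was 1.13 (SE 0.25). Among all genes tested in young mice, 2.68% had CKO values all above the CTL values and 2.09% all below, and 0.174% passed the adjusted threshold, but since this contrast chose Cd68, nothing is read from its place among them. Leaving out each young mouse in turn gave log2 fold changes between 1.02 and 1.28.

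In the aged CTL mice 65, 99, 114 and 124 Cd68 was at 7.24, 6.60, 21.98 and 11.9 CPM (11.9 ± 7.10, SD, n = 4). In the aged CKO mice 78, 81, 94, 121 and 122 it was at 45.4, 46.7, 50.8, 10.8 and 27.8 CPM (36.3 ± 16.8, SD, n = 5). The groups overlapped because the mouse labelled aged CKO 121, which has the highest Ythdf2, had less Cd68 than 2 of the mice labelled aged CTL. The other 4 aged CKO mice ranged from 27.8 to 50.8 CPM and lay above all aged CTL mice. The ratio of means was 3.04 with all mice, 3.58 without mouse 121 and 3.57 without mice 121 and 124, and the log2 fold change was 1.61 (SE 0.49), 1.84 and 1.82. Of all genes, 1.78% had aged CKO values all above and 1.7% all below the aged CTL values, and 4.08% lay all above once mouse 121 was left out.

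**Figure D1:**
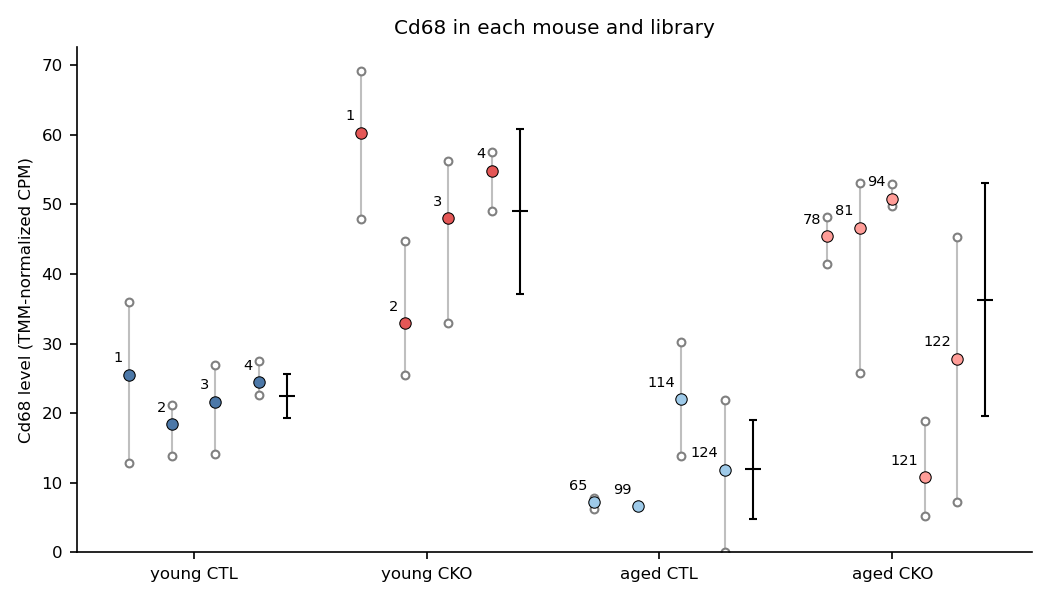
Cd68 in each mouse, in TMM-normalized CPM, by genotype and age: filled points are mice with their number beside them, open circles their single libraries, and bars the group mean ± SD. The 4 young CKO mice (32.9 to 60.3 CPM) sit above the 4 young CTL mice (18.4 to 25.5 CPM), and in the aged groups the mouse labelled CKO 121 (10.8 CPM) sits among the CTL mice.

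Cd68 rested on between 16 and 479 counts per mouse and varied between the libraries of one mouse. The median absolute log2 ratio of libraries A and B was 0.749 for Cd68, against 0.186 to 0.249 for Lamp1, Lamp2, Ctsb, Ctsd and Hexa, 0.516 for Ctsl and 1.10 for Tfeb. In mouse aged CTL 124 library A had 0 counts of Cd68 and library B 21.9 CPM, and in mouse aged CKO 122 the libraries stood at 7.25 and 45.3 CPM. The young libraries overlapped as well, since young CTL 1 A was at 36.0 CPM and young CKO 2 A at 25.6 CPM. The separation of the young genotypes was therefore one of mice and not of single libraries.

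The nearest gene with a row overlapped between genotypes at both ages. This gene, Eif4a1, encodes a translation initiation factor, lies 782 bases from Cd68 on the same strand and was at 956 ± 147 CPM in young CTL, 904 ± 65.2 in young CKO, 514 ± 129 in aged CTL and 532 ± 62.3 in aged CKO mice (SD, n = 4, 4, 4 and 5). More than 3 counts of the Y-linked genes were found in 3 young CTL, 1 young CKO, 1 aged CTL and 1 aged CKO mice. In these mice Cd68 was at 18.4 to 25.5 CPM in young CTL and 60.3 CPM in young CKO, and at 6.60 CPM in aged CTL and 45.4 CPM in aged CKO. Within the other mice, which had at most 1 such count, Cd68 was at 24.4 CPM in the single young CTL mouse and 32.9 to 54.8 CPM in the 3 young CKO mice, and at 7.24 to 21.98 CPM in 3 aged CTL and 10.8 to 50.8 CPM in 4 aged CKO mice. The genotype contrasts chose Cd68, so nothing is read from this split.

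Lamp1 and Lamp2 encode the main glycoproteins of the lysosomal membrane, and LAMP2A is the receptor of chaperone-mediated autophagy. Lamp1 (chr8:13159161-13175338, plus strand) was at 274, 253, 289 and 276 CPM in young CTL and 275, 264, 178 and 280.1 CPM in young CKO mice 1 to 4. In the aged mice, in the order of the mouse numbers, it was at 291, 307, 291 and 224 CPM in CTL and at 288, 270.3, 315, 281 and 326 CPM in CKO. The groups overlapped at both ages, with log2 fold changes of -0.13 (SE 0.15, 95% interval -0.43 to 0.17, adjusted p = 0.938) in young and 0.09 (SE 0.16, 95% interval -0.21 to 0.40, adjusted p = 0.889) in aged mice by edgeR's quasi-likelihood test, adjusted over all genes. The aged value was 0.01 (adjusted p = 0.984) without mice 121 and 124. Lamp1 shares 249 exon bases with Grtp1 on the opposite strand, and since the use of strand in counting is not given in the sources used here, reads of overlapping genes cannot be told apart.

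Lamp2 (chrX:38401357-38456454, minus strand) was at 314, 283, 339 and 196 CPM in young CTL and 413, 295, 282 and 360.4 CPM in young CKO mice. In aged mice it was at 387, 275, 190.2 and 189 CPM in CTL and 426, 251, 324, 275 and 341 CPM in CKO. The spread within groups was wider than for Lamp1 and the genotypes overlapped. The log2 fold change was 0.26 in young (SE 0.18, 95% interval -0.10 to 0.61, adjusted p = 0.882) and 0.32 in aged mice (SE 0.24, 95% interval -0.15 to 0.78, adjusted p = 0.698), and 0.24 (adjusted p = 0.773) without mice 121 and 124. Once Y-linked expression (log2 CPM) entered the fit as a covariate, the young value was 0.54 (SE 0.16, adjusted p = 0.451).

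The cathepsins are the chief proteases of the lysosome: cathepsin B and cathepsin L are cysteine proteases, and cathepsin D is an aspartic protease. Ctsb (chr14:63122462-63145923, plus strand) was at 340.0, 325, 394 and 345 CPM in young CTL and 446, 331, 286 and 447 CPM in young CKO mice. It was at 556, 513, 398 and 145 CPM in aged CTL and 606, 614, 530.3, 412 and 594 CPM in aged CKO mice, where the lowest value belonged to the mouse labelled CTL 124 and the lowest of the CKO mice to the mouse labelled CKO 121. The log2 fold change was 0.11 in young (SE 0.16, 95% interval -0.20 to 0.42, adjusted p = 0.951) and 0.46 in aged mice (SE 0.30, 95% interval -0.14 to 1.05, adjusted p = 0.651). The aged value was 0.26 (adjusted p = 0.579) without mice 121 and 124. Ctsb shares 774 exon bases with Fdft1 on the opposite strand.

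Ctsd (chr7:142375911-142388038, minus strand) was at 285, 240.0, 235 and 281 CPM in young CTL and 327, 329, 161 and 340.0 CPM in young CKO mice. In aged mice it was at 397, 364, 404 and 297 CPM in CTL and 463, 365, 457, 489 and 477 CPM in CKO. Of the 5 aged CKO mice 4 lay above all aged CTL mice, and mouse 81 lay among the CTL mice. The highest aged value belonged to the mouse labelled CKO 121 and the lowest to the mouse labelled CTL 124, whose Ythdf2 went against their labels. The log2 fold change was 0.16 in young (SE 0.20, 95% interval -0.23 to 0.55, adjusted p = 0.944) and 0.31 in aged mice (SE 0.16, 95% interval -0.00 to 0.62, adjusted p = 0.526), and the latter was 0.18 (adjusted p = 0.723) without mice 121 and 124. The young value was 0.36 (SE 0.13, adjusted p = 0.410) without young CKO mouse 3. Ctsd shares 808 exon bases with the gene model Gm49369 on the same strand.

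Ctsl (chr13:64359337-64370890, minus strand) was at 128, 112, 124 and 65.7 CPM in young CTL and 85.6, 79.3, 191 and 80.4 CPM in young CKO mice, where mouse 3 stood apart. In aged mice it was at 122, 133, 72.6 and 51.1 CPM in CTL and 77.4, 56.6, 80.6, 58.3 and 70.7 CPM in CKO, so that all groups overlapped. The log2 fold change was 0.02 in young (SE 0.28, 95% interval -0.53 to 0.58, adjusted p = 0.992) and -0.46 in aged mice (SE 0.27, 95% interval -0.99 to 0.08, adjusted p = 0.602), and -0.62 (adjusted p = 0.317) without mice 121 and 124. Ctsl shares 1742 exon bases with the antisense gene Gm47123 and 395 with the pseudogene Gm49230.

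Hexa encodes the alpha subunit of beta-hexosaminidase, the enzyme that degrades GM2 ganglioside and is deficient in Tay-Sachs disease. It lies on chr9:59539540-59565109, plus strand, and was at 173, 179, 149 and 131 CPM in young CTL and 156, 129.6, 96.4 and 129 CPM in young CKO mice. In aged mice it was at 208, 190.2, 234 and 149 CPM in CTL and 192, 177, 235, 171 and 194 CPM in CKO. Of the 4 young CKO mice, 3 lay below all young CTL mice and mouse 1 lay among them. The log2 fold change was -0.30 in young (SE 0.17, 95% interval -0.64 to 0.03, adjusted p = 0.794) and -0.00 in aged mice (SE 0.18, 95% interval -0.35 to 0.34, adjusted p = 0.999), and -0.08 (adjusted p = 0.903) without mice 121 and 124. The young value was -0.12 (adjusted p = 0.961) when Y-linked expression was a covariate, and the 3 low CKO mice were those without Y-linked counts. Hexa shares 255 exon bases with Tmem202 on the opposite strand.

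Tfeb (chr17:47737030-47792419, plus strand) was near the limit of what these libraries measure. It was at 2.9, 6.1, 7.4 and 1.9 CPM in young CTL, 4.9, 4.6, 3.8 and 1.7 CPM in young CKO, 3.6, 2.1, 3.4 and 12.2 CPM in aged CTL and 7.6, 3.2, 5.3, 2.6 and 6.9 CPM in aged CKO mice. The highest value, in the mouse labelled aged CTL 124, came from its library A (80 counts, 23.8 CPM), while its library B was at 1.81 CPM. The log2 fold changes of -0.30 in young (SE 0.64, 95% interval -1.55 to 0.95, adjusted p = 0.973) and -0.05 in aged mice (SE 0.69, 95% interval -1.40 to 1.31, adjusted p = 0.989) had the widest intervals of the 8 genes. The aged value was 0.91 (adjusted p = 0.677) without mice 121 and 124.

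**Figure D2:**
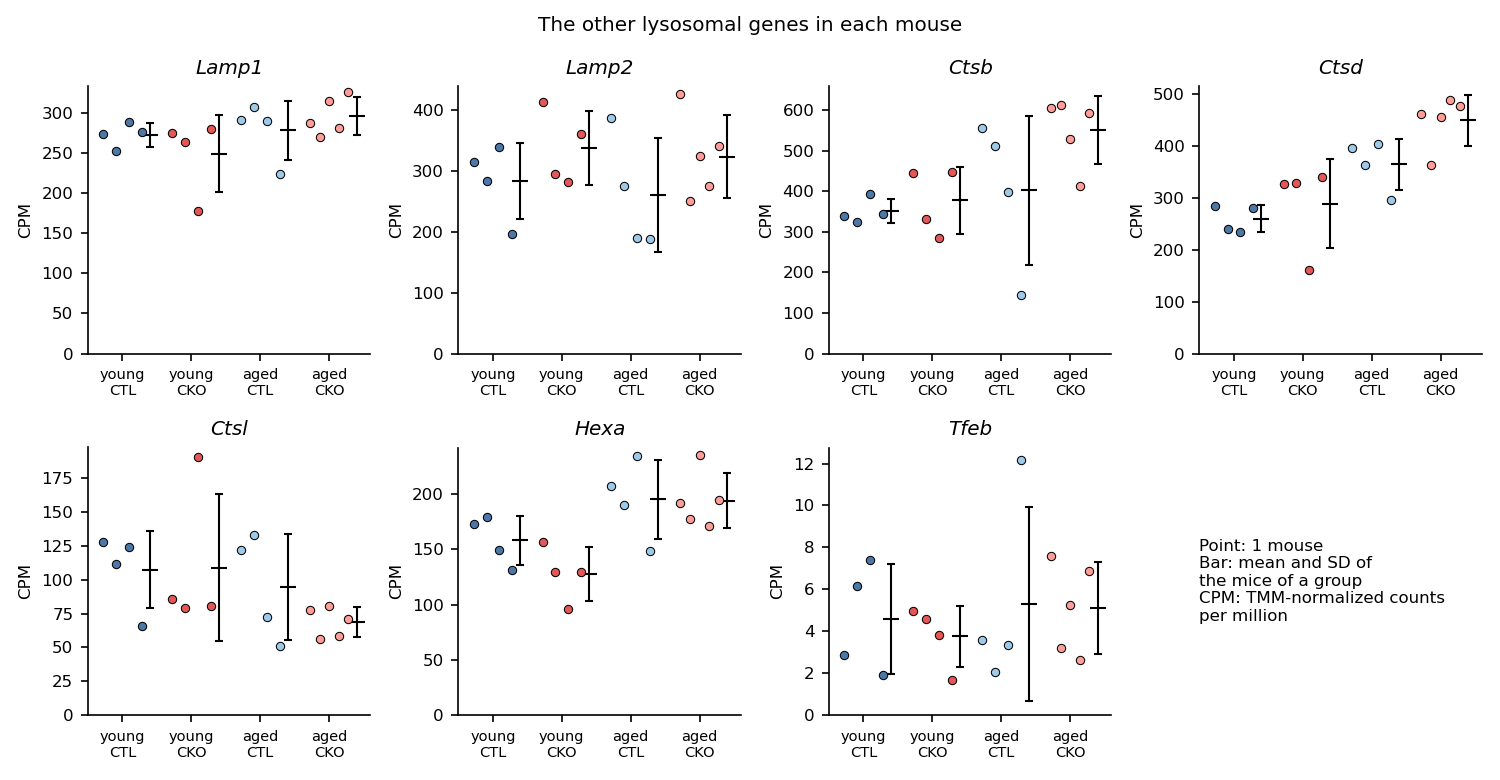
The other 7 members in each mouse, in TMM-normalized CPM, 1 panel a gene with its own axis, by genotype and age; points are mice and bars the group mean ± SD. CTL and CKO mice overlap for each of the 7 genes at both ages, and Ctsd and Hexa sit higher in aged than in young CKO mice.

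**Figure D3:**
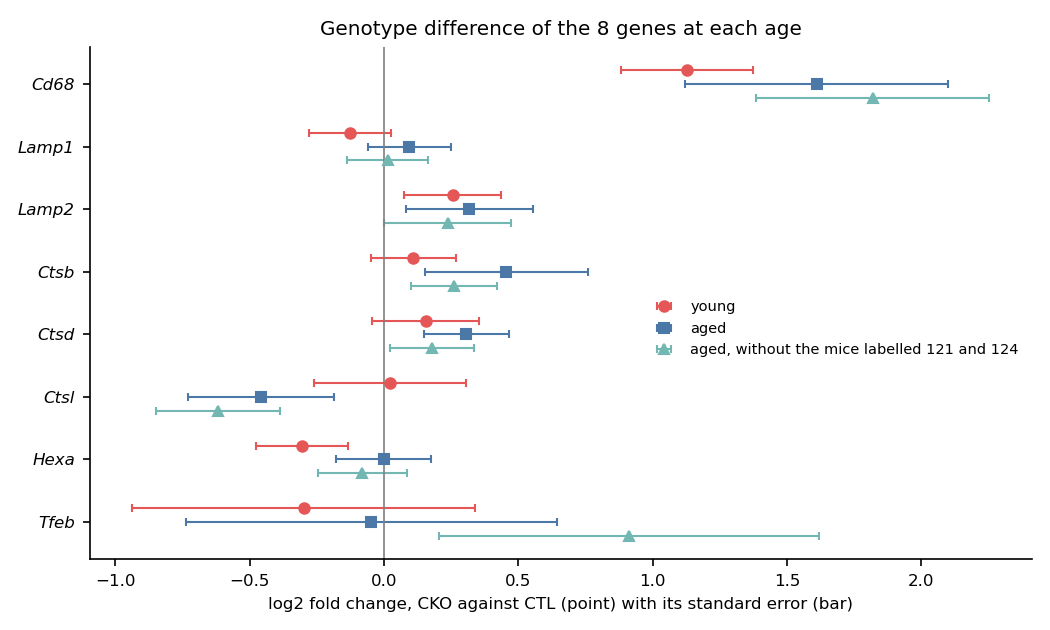
Log2 fold change of CKO against CTL (points) with its standard error (bars) for the 8 genes, in young mice (circles), in aged mice (squares) and in aged mice without the mice labelled 121 and 124 (triangles). Cd68 lies at 1.13, 1.61 and 1.82, and the other 7 genes lie between -0.62 and 0.91, with the widest bars for Tfeb.

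None of the 7 tested members was called between genotypes at either age. In young mice 20 of 11526 genes passed an adjusted p of 0.05 in edgeR, 15 higher and 5 lower in CKO. In aged mice 0 of 11961 genes (0.0%) passed in edgeR, 1208 had an unadjusted p below 0.05, DESeq2 over mice called 104, and a likelihood ratio test with libraries as replicates called 420. The test of whether the genotype effect differed between ages called 0 of 12352 genes (0.0%) in edgeR, with 588 at an unadjusted p below 0.05, 0 in DESeq2 and 3 in that likelihood ratio test. The aged contrast without mice 121 and 124 called 40 genes (0.333%) in edgeR, 25 higher and 15 lower in CKO, none of them one of the 7 tested members. For young mice DESeq2 called 77 and the likelihood ratio test 90.

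The wider set of lysosomal genes was described through 8 lists, of lysosomal membrane proteins, proteases, protease inhibitors, hydrolases, the proton-pumping V-ATPase, TFEB and its regulators, mannose 6-phosphate sorting and autophagy. Of 148 genes listed, 144 had a row and 143 were tested, 135 of them not members. Among those 135, 0 were called in young and 0 in aged mice by edgeR, with 8 and 10 at an unadjusted p below 0.05. DESeq2 called 0 at either age. The likelihood ratio test with libraries as replicates called 0 in young mice. In aged mice it called 1, Npc2, a carrier of cholesterol in the lumen, lower in CKO. The fold changes were positive for 80 of 135 in young (59.3%, median 0.05) against 49.9% and a median of -0.00 over all genes, and for 79 of 135 in aged mice (58.5%, median 0.07) against 49.7% and a median of -0.00. The aged count rested on the mouse labelled CTL 124, without which 64 of 135 were positive with a median of -0.01, and without mice 121 and 124 it was 67 with a median of -0.01.

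The counts for each list are given with all mice as labelled, and those of aged mice were not recomputed without mouse 124, on which the aged count over all lists rested. Of the proteases 14 of 17 in young and 13 of 17 in aged mice had positive fold changes, with medians of 0.14 and 0.15. The hydrolases had 24 of 37 at each age, with medians of 0.06 and 0.11, and the membrane proteins, Cd68 included, 13 and 15 of 23, with medians of 0.05 and 0.21. The V-ATPase subunits stood at 9 and 8 of 17, with medians of 0.01 and -0.02, and the autophagy genes at 5 and 7 of 16, with medians of -0.08 and -0.01. TFEB and its regulators had 14 and 11 of 21, with medians of 0.07 and 0.01, the sorting genes 4 and 4 of 9, with medians of -0.03 and -0.05, and the protease inhibitors 2 and 2 of 3, with medians of 0.23 and 0.14. Cd68 and the 7 other members are counted in their lists here.

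Of the listed genes that are not members, none passed the test, and the extremes of each list are given among them. In young mice these were Ostm1 (0.38) and Tmem192 (-0.35) for the membrane, Ctsw (0.70) and Lgmn (-1.38) for the proteases, Cstb (0.24) and Cst3 (-0.23) for the inhibitors, and Naglu (0.83) and Acp2 (-0.64) for the hydrolases, all as log2 fold changes. The other lists ran from Atp6ap1 (0.23) to Atp6v0a1 (-0.19), from Fnip2 (1.04) to Tfe3 (-0.49), from Gga3 (0.62) to Gnptg (-0.33) and from Gabarapl1 (0.12) to Wipi1 (-0.59). Their adjusted p lay between 0.606 and 0.971. Lgmn, the asparaginyl protease legumain, went from 16.7 to 6.38 CPM and Ctsw, a cathepsin best known from T and NK cells, from 20.3 to 32.8 CPM in the group means.

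In aged mice, with all mice as labelled, the extremes among the non-members were Clcn7 (1.05) and Npc1 (-0.999), Ctsw (1.73) and Ctss (-1.54), Cst7 (2.48) and Cst3 (-0.30), and Sgsh (1.12) and Gla (-0.56) for the same first 4 lists. The others ran from Atp6v0a1 (0.81) to Atp6v1g2 (-0.74), from Mitf (0.47) to Fnip1 (-0.64), from Nagpa (0.60) to Igf2r (-1.02) and from Atg9a (0.81) to Ulk1 (-0.71), with adjusted p between 0.398 and 0.851. Ctsw went from 30.5 to 99.0 CPM, and Npc1, which exports cholesterol from the lysosome, from 26.3 to 13.1 CPM in the group means. Ctsw had the highest fold change of the proteases at both ages. Among the 135 non-members, the groups did not overlap for Ctsc and Fuca1, higher, and Lamtor1, lower in young CKO mice, where 2.68% and 2.09% of all genes did the same. In aged mice they did not overlap for Cst7, higher, and for Mcoln2, Ctsh and Npc2, lower in CKO, where the shares of all genes were 1.78% and 1.7%. Cst7 was low, at 0.0 to 2.6078 CPM in aged CTL and 2.6091 to 12.8 CPM in aged CKO mice, so that the gap between the groups was far smaller than their spread.

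**Figure D4:**
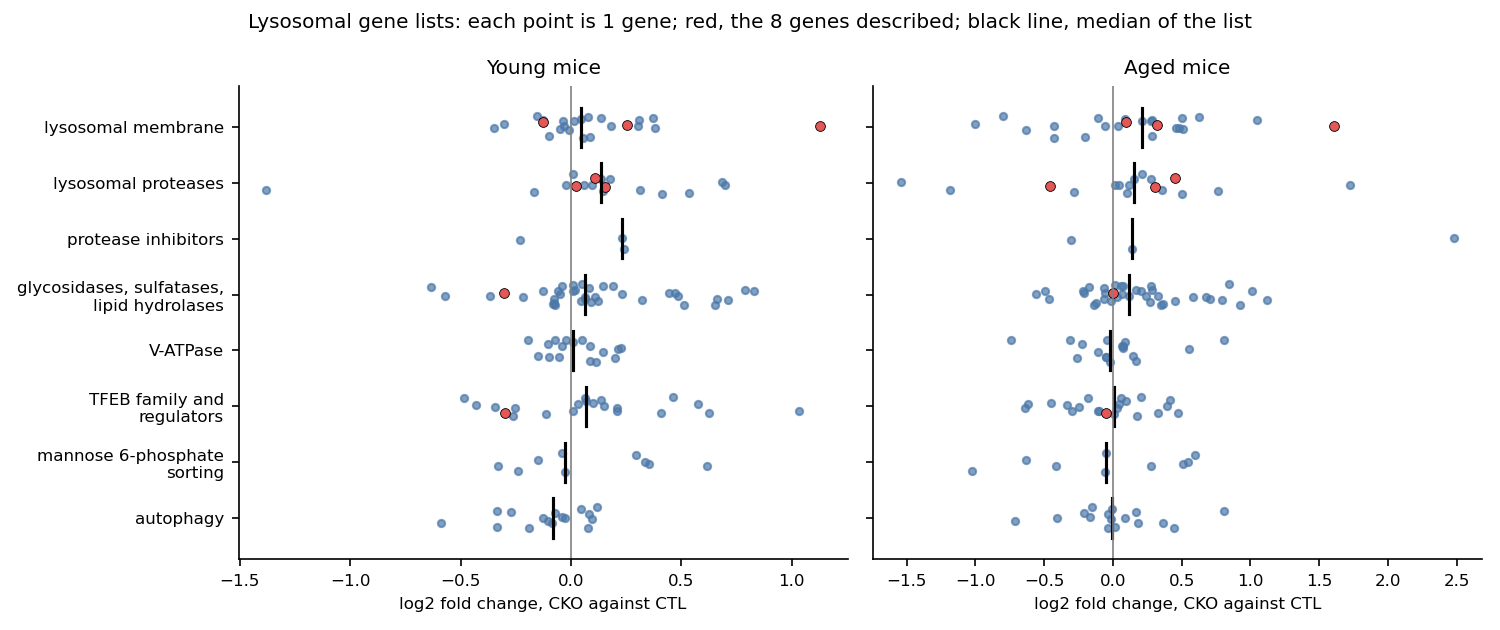
Log2 fold change of CKO against CTL for each tested gene of the 8 lysosome lists, 1 row a list, in young (left) and aged mice (right), with the 8 genes described in red and the median of a list as a black line. The medians lie between -0.08 and 0.23, and Cd68 lies at 1.13 in young and 1.61 in aged mice.

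Between ages, Cd68 had a log2 difference of -0.90 (SE 0.42) between aged and young CTL and -0.43 (SE 0.38) between aged and young CKO mice, given as a description like its genotype contrasts. These were -0.89 and -0.20 without mice 121 and 124. Leaving out each mouse in turn gave -1.37 to -0.71 in CTL and -0.58 to -0.21 in CKO mice. Of all genes, 14.8% were called between aged and young CTL mice (828 higher, 997 lower in aged) and 16.6% between aged and young CKO mice (891 higher, 1154 lower), with medians over all genes of 0.11 and 0.07.

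Of the 7 tested members, 0 were called between aged and young CTL mice by edgeR and 2, Ctsd and Hexa, were called between aged and young CKO mice. Ctsd rose from 289 ± 86.0 CPM in young CKO (SD, n = 4) to 450.01 ± 49.4 CPM in aged CKO mice (SD, n = 5), a log2 difference of 0.64 (SE 0.18, 95% interval 0.28 to 1.00, adjusted p = 0.0212), and the groups did not overlap, as for 9.07% of all genes in this direction. It was called in 8 of 9 fits that each left out 1 CKO mouse, and without young CKO mouse 3 it was 0.43 (adjusted p = 0.0726). In CTL mice Ctsd stood at 260.2 ± 26.5 and 365 ± 48.9 CPM (SD, n = 4 each), a difference of 0.49 (SE 0.19, 95% interval 0.11 to 0.87, adjusted p = 0.0904), again without overlap, as for 7.11% of all genes. Without mice 121 and 124 the differences were 0.61 (adjusted p = 0.0271) in CKO and 0.58 (adjusted p = 0.0484) in CTL mice.

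Hexa rose from 128 ± 24.6 CPM in young CKO (SD, n = 4) to 194 ± 24.9 CPM in aged CKO mice (SD, n = 5), a log2 difference of 0.60 (SE 0.17, 95% interval 0.26 to 0.94, adjusted p = 0.0199), with no overlap, as for 9.07% of all genes in this direction. It was called in 6 of 9 fits that each left out 1 CKO mouse. Without aged CKO mouse 94 it was 0.52 (adjusted p = 0.0578), without young CKO mouse 2 it was 0.61 (adjusted p = 0.0518) and without young CKO mouse 3 it was 0.48 (adjusted p = 0.0888). In CTL mice the difference was 0.30 (SE 0.18, adjusted p = 0.267). Without mice 121 and 124 the differences were 0.64 (adjusted p = 0.00994) in CKO and 0.41 (adjusted p = 0.107) in CTL mice.

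Ctsb did not pass with all mice, at 0.20 (adjusted p = 0.658) in CTL and 0.55 (adjusted p = 0.154) in CKO mice. Without mice 121 and 124 it was 0.48 (adjusted p = 0.0513) in CTL and 0.63 (adjusted p = 0.00778) in CKO mice, the latter past the threshold. With libraries as replicates, the likelihood ratio test also called Ctsb in CKO mice, at 0.58 (adjusted p = 0.0366). Lamp1 was at 0.03 (adjusted p = 0.925) and 0.25 (adjusted p = 0.272), Lamp2 at -0.12 (adjusted p = 0.762) and -0.06 (adjusted p = 0.883), and Ctsl at -0.19 (adjusted p = 0.719) and -0.67 (adjusted p = 0.122) in CTL and CKO mice. Tfeb was at 0.22 (adjusted p = 0.863) and 0.45 (adjusted p = 0.689). Without mice 121 and 124, in the same order, Lamp1 was at 0.12 and 0.27, Lamp2 at 0.0067 and -0.0075, Ctsl at 0.019 and -0.61, and Tfeb at -0.59 and 0.62, with adjusted p between 0.130 and 0.986.

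Among the 135 listed genes that are not members, 20 (14.8%) were called between aged and young CTL mice, 10 in each direction, and 27 (20%) between aged and young CKO mice, 13 higher and 14 lower, against 14.8% and 16.6% of all genes. The 13 genes called in both made up 65.0% of the first and 48.1% of the second set, with 5 higher and 8 lower in aged mice in both. Over all genes, 1074 were called in both, 58.8% and 52.5% of the respective sets. The counts of called genes were lower without single young mice, at 11 without young CTL mouse 4 for CTL, where 896 of all genes were called, and at 14 without young CKO mouse 2 and 14 without young CKO mouse 3 for CKO, where 1225 and 1183 of all genes were called. They were, without mice 121 and 124, 27 (15 higher, 12 lower) and 29 (16 higher, 13 lower), where 17.6% and 18.1% of all genes were called. The 5 higher ones were the protease gene Ctsf (1.24 in CTL, 1.13 in CKO), the glycosidase genes Gaa (1.503, 1.46), Man2b2 (1.84, 1.53) and Idua (1.42, 1.36), and the sorting adaptor gene Gga1 (1.11, 1.33). The 8 lower ones were the cystatin gene Cstb (-0.84, -0.95), the V-ATPase genes Atp6v0e (-0.58, -0.53), Atp6v1e1 (-0.80, -0.92) and Atp6v1g1 (-0.64, -0.57), the Ragulator genes Lamtor3 (-0.78, -0.50) and Lamtor5 (-0.82, -0.83), and Gabarap (-0.89, -1.03) and Gabarapl2 (-0.75, -0.88), which act in autophagosome formation. Without mice 121 and 124, Lamtor3 was no longer called in CKO mice, while the rest of the 13 stayed called in both genotypes. All called V-ATPase subunits were lower in aged mice, 3 of 17 in CTL and 5 of 17 in CKO mice. Among the subunits not called some were higher: values were positive for 6 of 17 in CTL and 5 of 17 in CKO mice, up to 0.86 and 1.20. Of the proteases 1 was higher in CTL and 4 were higher and 2 lower in CKO mice, Ctsd included.

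**Figure D5:**
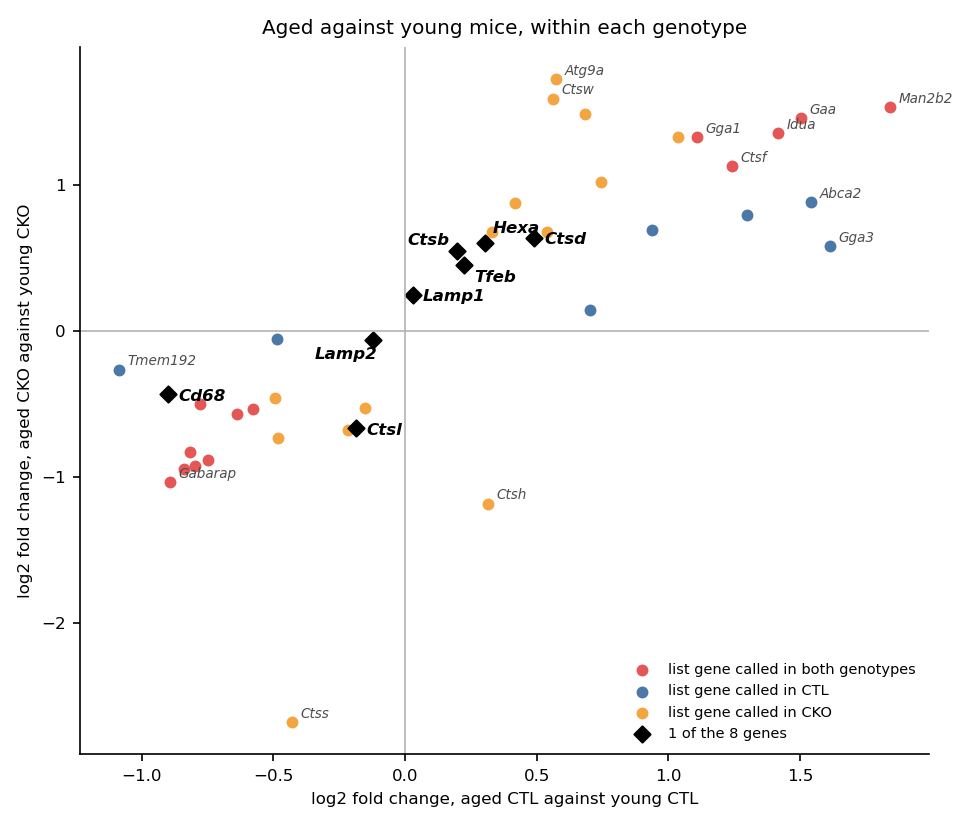
Log2 fold change of aged against young mice in CTL (x axis) and CKO (y axis) for the 8 genes (diamonds) and for the listed lysosomal genes called in both genotypes (red), in CTL alone (blue) or in CKO alone (orange). Ctsd lies at 0.49 and 0.64 and Hexa at 0.30 and 0.60, Cd68 lies at -0.90 and -0.43, and the 13 genes called in both genotypes lie in the lower left or upper right.

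The genes called in 1 genotype alone are given with the values of that genotype, and whether the genotypes differ in them was not shown, since the test of that difference called no listed gene. In CTL mice they were Abca2 (1.54), Gga3 (1.61), Flcn (1.30), Sidt2 (0.94) and Ppp3ca (0.70), higher in aged mice, and Tmem192 (-1.09) and Lamtor1 (-0.49), lower. In CKO mice Atg9a (1.72), Ctsw (1.59), Arsa (1.48), Nagpa (1.33), Mlst8 (1.02), Acp2 (0.88), Prcp (0.68) and Sqstm1 (0.68) were higher in aged mice. Ctss (-2.68), Ctsh (-1.18), Atp6v1d (-0.73), Atp6v1h (-0.68), Npc2 (-0.53) and Pip4p1 (-0.46) were lower. Which genes were called in 1 genotype alone depended on mice 121 and 124. Without them Ctss, Ctsw and Flcn were called in both genotypes, Pip4p1 in CTL mice alone and Mlst8 in neither.

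Since CD68 marks macrophages, the markers of that lineage were read in the same mice. All 15 macrophage and monocyte markers had a row, and their summed level was 764 to 844 CPM in young CTL, 776 to 954 CPM in young CKO, 450.4 to 789 CPM in aged CTL and 492 to 765 CPM in aged CKO mice, most of it Lyz2, at 377 to 888 CPM. The markers Csf1r, Adgre1, Cx3cr1, Fcgr1, Ccr2 and Ly6c2 had 0 counts in 12, 13, 15, 13, 13 and 10 of 17 mice, and Csf1r reached at most 2.39 CPM. Other macrophage markers were detected in more mice, with 0 counts in 1 mouse for C1qb and in 2 each for C1qc and Mrc1. Their group means, in the order young CTL, young CKO, aged CTL and aged CKO, were 10.9, 9.88, 14.2 and 1.28 CPM for C1qb, 8.65, 12.4, 12.9 and 0.791 CPM for C1qc, and 10.9, 4.34, 11.4 and 2.40 CPM for Mrc1. Of the markers that could be tested, none passed in either contrast. Among those named here, log2 fold changes were in young mice positive for C1qc (0.53), Cd163 (0.45), Itgam (0.16) and Lyz2 (0.09) and negative for Mrc1 (-1.32), C1qa (-0.26) and C1qb (-0.13). In aged mice they were positive for Lyz2 (0.06) and negative for C1qc (-3.94), C1qb (-3.40), C1qa (-2.84), Mrc1 (-2.25), Cd14 (-0.38), Itgam (-0.33) and Cd163 (-0.33). In bulk samples a difference in the number of cells of a type and a difference in RNA per cell cannot be told apart.

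The summed megakaryocyte, HSC and B cell markers of young CKO mice all lay above those of young CTL mice, as did 2.68% of single genes. Since this contrast chose Cd68, nothing is read from Cd68 doing the same. The 7 megakaryocyte markers, all with a row, summed to 848 to 1298 CPM in young CTL and 1467 to 3457 CPM in young CKO mice, and to 788 to 1819 CPM in aged CTL and 1400.0 to 2768 CPM in aged CKO mice. In young mice most of that difference came from Pf4, a platelet chemokine gene that went from 439.9 to 1529 CPM in the group means. Gp9 went the other way, from 84.5 to 61.8 CPM. Pf4 had log2 fold changes of 1.80 (adjusted p = 0.0488) in young and 2.05 (adjusted p = 0.205) in aged mice in edgeR. The 10 neutrophil and granule markers summed to 184 to 272 CPM in young CTL and 263 to 370.5 CPM in young CKO, and to 209 to 548 CPM in aged CTL and 319 to 566 CPM in aged CKO mice. Most of this was Prtn3, with group means of 212 and 297 CPM in young and 271 and 407 CPM in aged CTL and CKO mice, while Mpo was at 10.6 and 3.69 CPM in young and 26.8 and 2.63 CPM in aged CTL and CKO mice. The 10 HSC markers summed to 1389 to 1702 CPM in young CTL and 1811 to 2327 CPM in young CKO, and to 1305 to 1973 CPM in aged CTL and 1415 to 2095 CPM in aged CKO mice. In young mice Ly6a, which encodes Sca-1, made up most of that difference, going from 280.3 to 643 CPM in the group means, while Kit was at 364 and 360.4 CPM, Procr at 68.1 and 66.5 CPM and Hlf at 192 and 188 CPM. The B cell markers with a row, 3 of 6, summed to 78.6 to 88.9 CPM in young CTL and 89.8 to 152 CPM in young CKO, and to 32.5 to 75.2 CPM in aged CTL and 55.01 to 104 CPM in aged CKO mice, nearly all of it Cd79b, while Ms4a1 was at 0 counts. The part of these lists in the level of Cd68 was not tested.

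Over the 17 mice the genes whose log2 CPM followed Cd68 most closely among 12351 were Il12a (Pearson's r = 0.86), Slc35d3 (0.84), Ifi27 (0.83), Commd5 (0.83) and Gtdc1 (0.83), and r was -0.80 for Ythdf2. The other members were not among them, with r of 0.30 for Lamp2, 0.18 for Ctsb, 0.05 for Tfeb, -0.09 for Ctsl, -0.12 for Ctsd, -0.15 for Lamp1 and -0.28 for Hexa. Taken as deviations from the group means, the closest genes were Rab26os, Gpr183, Elf1 and Zfp940 (0.81 each) and Tmem215 (0.80), and the other members lay between -0.15 and 0.29. Among the members themselves, r of these deviations was 0.86 between Ctsd and Lamp1, 0.68 between Ctsb and Lamp1, 0.68 between Hexa and Lamp1 and 0.62 between Hexa and Ctsd, the 4 highest pairs, and the lowest were -0.47 between Tfeb and Ctsb and -0.38 between Ctsl and Ctsd. Young CKO mouse 3 had the lowest Ctsd and Lamp1 and the highest Ctsl of its group, and r was not computed without it. These are descriptions over mice that differ in genotype, age and library set, so they carry no p. Cd68 was picked for its genotype difference, so over the 17 mice genes that differ between genotypes tend to follow or oppose it by that choice. The same holds for Ythdf2, and nothing is read from the r with Cd68.

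YTHDF2 binds m6A, which is laid down most often in the letters GGACT of an RNA written as DNA. In the principal transcripts of GENCODE M21, GGACT occurred 1 time in the 1230 bases of Cd68 (0.813 per kb), 0 times in Lamp1 and Lamp2, 2 times in Ctsb and in Ctsd, 8 times in Ctsl, 1 time in Hexa and 6 times in Tfeb (2.61 per kb). Of 11107 transcripts, 91.8% held it at least 1 time, with a median of 1.04 per kb. A match of these letters is a description of the sequence, and methylation was not measured in these samples.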

How the data were processed

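Single libraries of 100 sorted HSCs were prepared with SMART-Seq2. The authors aligned the reads to GRCm38 (mm10 in their processing notes) with HISAT2, counted them per gene with Rsubread, and deposited raw counts without normalization. The annotation, the use of strand and the rule for reads on several genes are not given in the sources used here. The low library aged CTL 99 B was left out, as the labels state.

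Libraries of a mouse were summed, and mice were the replicates, so p-values measure the spread between mice. The paired libraries differed beyond sampling noise (chi-square per degree of freedom 10.2 to 56.2 in 16 mice). Low genes were removed with filterByExpr of edgeR 4.0.16 (R 4.3.3), at a count of 10 and a total of 15. TMM factors then scaled the libraries, and edgeR's quasi-likelihood F test was applied, its p-values adjusted by Benjamini-Hochberg over all genes and read at 0.05. The young and the aged genotype contrasts were fitted apart, and the age contrasts and the genotype by age difference were fitted over all 17 mice. CPM are TMM-normalized, and log2 CPM used a prior count of 2. In edgeR, the SE is the absolute log2 fold change over the square root of the F statistic. Intervals at 95% used this SE with a normal quantile, so they are narrower than the F test itself would give. Floors of 3 counts cover counting error only. The scripts were tested on simulated data with 200 changed genes. Of 2-fold changes, 33.5% were called in the young and 14% in the aged design, and of 4-fold changes 72% and 66.5%. A gene that was not called may therefore still differ.

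Members and gene lists were chosen with earlier results of these data known. The genes named are the members, the listed genes called in a contrast or else the highest and lowest of each list, the 5 most like Cd68, and neighbours of members. Listed genes with groups that did not overlap, and Npc2 in aged mice, were named after their values were seen. Alternatives were DESeq2 1.42.0, DESeq2 size factors, no filter, the authors' likelihood ratio test over libraries, leaving out each mouse, leaving out mice 121 and 124, a Y-linked covariate, replicate blocks, 1 fit of all mice and CPM without TMM. The share of genes not overlapping without mouse 121 was added after seeing the data. Promoters came from RefSeq (GRCm38.p6), and gene positions and transcripts from GENCODE M21. The result of 1 marker gene is not reported here, although it remains in the counts and sums.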

Additional observations from a re-analysis of the deposited data

Results flagged for a closer look

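Among the 32 groups of 4 or 5 mice examined for the 8 members, 5 had a highest or lowest mouse that lay apart from the rest of its group by Dixon's criterion, where chance gives about 1 in 20 groups, or 1.6 here. Young CKO mouse 3 accounted for 3 of them. It had the lowest Lamp1 of its group (177.9 CPM, the next mouse 264 CPM), the lowest Ctsd (160.5 CPM, the next 327 CPM) and the highest Ctsl (190.9 CPM, the next 85.6 CPM). Aged CKO mouse 81 had the lowest Ctsd of its group (364.5 CPM, the next 457 CPM). The mouse labelled aged CTL 124 had the highest Tfeb of its group (12.19 CPM, the next 3.57 CPM). Cd68 was at 48.0 CPM in young CKO mouse 3, within its group.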

How the results depend on the processing

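The count of genes called was the value that moved most with the processing, and the causes were not tested. For young CKO against young CTL, where 20 were called, it was 1 with all mice in 1 fit, 77 with DESeq2, 90 with the likelihood ratio test over libraries and 9 with the Y-linked covariate. For aged CKO against aged CTL, where 0 were called, it was 5, 104 and 420 in the first 3 of these, 40 with the replicate block by library letter and 40 without the mice labelled 121 and 124. The likelihood ratio test gave 3112 for aged against young CKO and 3 for the difference between ages, which was 15 without mice 121 and 124. Over fits that omit single mice, the counts ran from 0 to 18 in young and 0 to 16 in aged mice (16 without mouse 121), from 896 to 2048 for age in CTL, from 1183 to 1975 for age in CKO and from 0 to 2 for the difference between ages. Young mice 1 to 4 of both genotypes share only a number (correlations of deviations 0.039, -0.044, 0.049 and 0.0037 by number), and the replicate block by mouse number called 14 genes, 12 higher and 2 lower in CKO. Aged mice share no numbers. Changes of sign among the log2 fold changes were all in values that did not pass the test. Ctsl in young mice was -0.022 with the likelihood ratio test and -0.036 with the replicate block by mouse number. The Y-linked covariate gave Tfeb 0.33 in young and Hexa 7.61e-05 in aged mice. Without mice 121 and 124, Tfeb was 0.91 for genotype in aged mice, and for age in CTL mice Tfeb was -0.59, Ctsl 0.019 and Lamp2 0.0067. Over the same fits, Ctsl (-0.39 to 0.15), Lamp1 (-0.19 to 0.0060) and Tfeb (-0.55 to 0.04) changed sign in young mice, and Lamp1 (-0.0084 to 0.14), Hexa (-0.13 to 0.090) and Tfeb (-0.31 to 0.75) in aged mice. For age, Ctsb (-0.011 to 0.46), Ctsl (-0.40 to 0.0059), Lamp1 (-0.027 to 0.10) and Tfeb (-0.60 to 0.55) did so in CTL and Lamp2 (-0.19 to 0.042) in CKO mice. The listed genes called for age in CKO mice were 41 with the likelihood ratio test. The share of genes whose aged CKO values all lay above CTL, 1.78%, was 4.08% without mouse 121, an alternative chosen after seeing the data. Depth limits Tfeb, with 5 to 87 counts per mouse, and Cd68, with 16 to 479.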
